A study of Mus musculus with 6 samples.

Results

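The genes described here are 37 mouse genes of mitosis: the kinases and regulators that start it, the proteins of centromere and kinetochore, the spindle checkpoint, the spindle motors and the machinery of cytokinesis. They were chosen by symbol, for their function, and all 37 were found by Ensembl identifier among the 55802 rows of a table of RNA-seq counts from mouse liver. The table holds 6 libraries of wild-type (WT) C57BL/6 mice. In 3 of them the mice had received carbon tetrachloride (CCl4), a solvent that injures hepatocytes and is used to bring about liver fibrosis, and in 3 controls they had received oil. The labels give no dose, duration, age or sex, and do not say whether each library came from its own animal, so p-values measure the spread between libraries, which may be technical. Library totals ran from 18929972 to 20042731 counts. CCl4 replicate 3 stood somewhat apart from the other CCl4 libraries, with correlations of log CPM across genes of 0.9848 and 0.9849, where those 2 had 0.9934 with each other. Hepatocyte RNA dominated both groups, with the albumin gene Alb at 72303 to 75630 CPM (the count relative to the scaled library total) in the CCl4 livers and 68448 to 75620 CPM in the controls.

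Mitosis separates the copied chromosomes. Microtubules of the spindle attach to kinetochores, protein assemblies built on centromeric chromatin, and a checkpoint holds back the anaphase-promoting complex, the ubiquitin ligase that triggers separation, until every kinetochore is attached. Most of the genes involved are transcribed late in the cell cycle and their messenger RNAs are scarce in resting cells. Adult hepatocytes rarely divide, but enter the cycle after loss of tissue, and in an injured liver macrophages, stellate cells, endothelium and bile duct cells can divide as well. In RNA from whole liver, more dividing cells and more of these transcripts per dividing cell cannot be told apart.

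All 37 genes were higher in the CCl4 livers, at an adjusted p of at most 0.00361 each (edgeR's quasi-likelihood test, Benjamini-Hochberg adjustment over 15579 genes). Over all genes tested, 41.3% were called at an adjusted p of 0.05, 21.2% higher and 20.1% lower. Of these calls 51.4% were higher, a share that was 74.2% with scaling by library size alone and 65.3% with upper quartile scaling. Together the 37 genes took 558, 599 and 315 CPM in the CCl4 livers, against 71.9, 85.1 and 67.4 CPM in the controls, a ratio of group means of 6.56. The lowest CCl4 library stood above the highest control library for each of the 37 genes, where 54% of all genes tested were separated in either direction and 27.6% in that one. At 4-fold or more 31 of the 37 were called higher, against 3.04% of all genes, and at 8-fold or more 21, against 1.02%. The median log2 fold change of the 37 was 3.26, beside 0.00056 for all genes tested.

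All 37 passed the filter on low counts. Only 26 of them had at least 10 counts in every control library, so the others needed counts from CCl4 libraries to pass, and the counts of genes called are no evidence about the 37 as a group. The lowest count of any of the 37 was 24 in a CCl4 library and 2 in a control library, and folds of the scarcest genes have correspondingly wide intervals. A range in brackets after a fold below is its 95% interval.

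**Figure D1:**
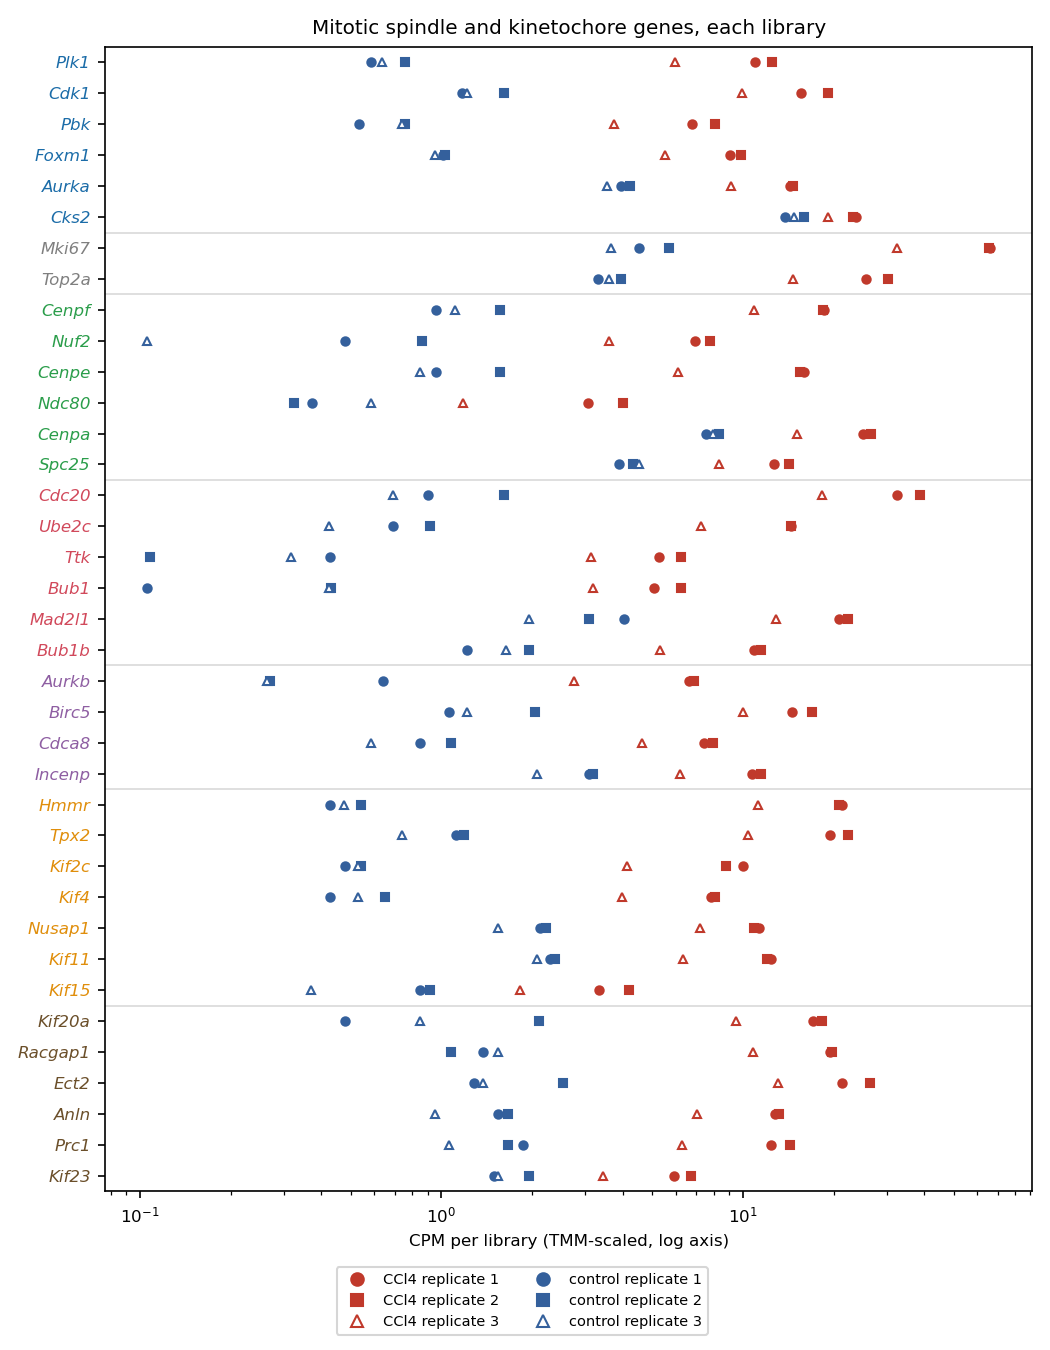
CPM of each of the 37 genes (rows, coloured by role and parted by grey lines) in each library on a log axis, CCl4 in red and control in blue, with a marker shape for each replicate. In every row the 3 CCl4 libraries lie to the right of the 3 controls, and CCl4 replicate 3, the open red triangle, is the lowest CCl4 library in all 37 rows.

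Promoters of genes of this class are known to carry the cell cycle genes homology region (CHR), an element bound by the MuvB complexes that repress these genes in resting cells and activate them before mitosis, and CCAAT boxes, bound by the factor NF-Y. Stretches were picked as examples, and other genes differ: Nuf2 and Cenpe had no CHR match and rose 12.6-fold and 11.1-fold. The stretches below hold both elements before genes that rose 6.5-fold (Top2a) to 27.7-fold (Cdc20), or, for Cks2, with the smallest fold, CCAAT boxes alone. Each is the 150 bases before the RefSeq start site on GRCm38.p6, 5′ to 3′ on the gene's strand, with capitals marking matches to TTTGAA or TTCGAA (CHR) and to CCAAT on either strand, so that TTCAAA and ATTGG mark matches on the other strand. They lie at chr4:118437344-118437493 (minus strand) for Cdc20, chr2:164769779-164769928 (plus strand) for Ube2c, chr10:69352913-69353062 (minus strand) for Cdk1, chr11:99024190-99024339 (minus strand) for Top2a and chr13:51645082-51645231 (plus strand) for Cks2.
Cdc20: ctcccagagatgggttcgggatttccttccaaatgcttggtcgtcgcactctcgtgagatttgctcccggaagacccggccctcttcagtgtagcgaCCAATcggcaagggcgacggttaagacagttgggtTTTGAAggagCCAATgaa
Ube2c: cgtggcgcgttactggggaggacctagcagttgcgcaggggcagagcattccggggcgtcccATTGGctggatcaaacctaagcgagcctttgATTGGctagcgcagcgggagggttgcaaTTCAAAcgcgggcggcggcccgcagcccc
Cdk1: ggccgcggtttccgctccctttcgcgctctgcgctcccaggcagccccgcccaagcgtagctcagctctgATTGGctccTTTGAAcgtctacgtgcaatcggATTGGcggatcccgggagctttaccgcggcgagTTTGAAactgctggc
Top2a: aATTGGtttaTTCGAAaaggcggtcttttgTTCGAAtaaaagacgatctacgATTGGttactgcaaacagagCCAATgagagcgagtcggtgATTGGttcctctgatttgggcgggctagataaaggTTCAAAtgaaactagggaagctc
Cks2: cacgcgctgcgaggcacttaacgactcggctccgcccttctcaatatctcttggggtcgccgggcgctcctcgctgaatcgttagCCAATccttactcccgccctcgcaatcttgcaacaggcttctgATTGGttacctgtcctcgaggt

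RefSeq windows of 300 bases (250 before the start and 50 after it) were matched for 31 of the 37 genes by symbol, 33 windows in all. A CHR match was found in 81.8% of these windows, against 19.2% of all 32851 windows and 17.6% of those of protein-coding genes. A CCAAT match was found in 75.8%, against 37.4% of all windows, and 2 or more in 51.5%, against 11.7%. Both elements stood together in 69.7% of the windows, against 7.52% of all. Much of the CHR share lay just past the start, where 51.5% of these windows and 2.46% of all windows held a match. In the 200 bases before the start alone, a CHR match was found in 36.4% of these windows and 13.4% of all. The windows were also richer in G and C, at a median of 59% against 52.7%. In 1 of the 33 windows a CHR match shared a base with a CCAAT match.

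In Cdk1 the CCAAT matches nearest the start began at -80 and -48, counted from the start site, and a CHR match began at -15. Ube2c had CCAAT matches at -88 and -57 and a CHR match at -29. Pairs of CCAAT matches 31 to 33 bases apart occurred in 5 genes (Aurka, Cdk1, Hmmr, Spc25 and Ube2c), or 15.2% of windows against 0.971% of all. That spacing was chosen after the sequences were seen, so the comparison cannot show an excess. Such pairs also stood in 9.09% of the windows of transport kinesins (2 of 22) and 3.12% of those of DNA replication genes (1 of 32). Fold changes of genes with and without a CHR match overlapped. The 25 genes with a match had log2 fold changes of 1.47 to 5.19, and the 6 without (Birc5, Cenpe, Cks2, Mad2l1, Nuf2 and Nusap1) had 0.57 to 3.65. A match is only a run of letters in this window. Promoters of Aurkb, Foxm1, Incenp, Kif20a, Pbk and Tpx2 were not analysed here. For comparison, 18.8% of the windows of 27 DNA replication genes and 13.6% of the windows of 19 transport kinesins held a CHR match, while 59.4% and 36.4% held a CCAAT match.

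Among the regulators of mitotic entry, Foxm1 (ENSMUSG00000001517), the transcription factor that drives many late cell cycle genes, had 9.07, 9.84 and 5.5 CPM in the CCl4 livers, against 1.01, 1.03 and 0.954 CPM in the controls. It rose 8.11-fold (95% interval 5.44 to 12.1, adjusted p = 3.25e-05). Cdk1 (ENSMUSG00000019942), the kinase that starts mitosis, had 15.6, 19.2 and 9.92 CPM in the CCl4 livers, against 1.17, 1.62 and 1.22 CPM in the controls, a rise of 11.1-fold (95% interval 6.89 to 17.9, adjusted p = 0.000113). Plk1 (ENSMUSG00000030867), the polo-like kinase of spindle poles and kinetochores, had 11, 12.5 and 5.94 CPM in the CCl4 livers, against 0.586, 0.756 and 0.636 CPM in the controls. Its controls all stayed under 1 CPM, and its fold change was 14.8-fold (8.46 to 25.7). Pbk (ENSMUSG00000022033), a mitotic protein kinase, rose 9.11-fold (5.32 to 15.6).

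Aurka (ENSMUSG00000027496), the Aurora kinase of the spindle poles, moved less, with 14.3, 14.7 and 9.14 CPM in the CCl4 livers, against 3.94, 4.21 and 3.55 CPM in the controls (3.25-fold, 95% interval 2.4 to 4.4, adjusted p = 0.000193). The smallest fold of all 37 belonged to Cks2 (ENSMUSG00000062248), a small protein that binds Cdk1, which had 23.8, 23.2 and 19.2 CPM in the CCl4 livers, against 13.8, 16 and 14.8 CPM in the controls. Its groups did not overlap, but the gap was narrow, and the rise was 1.48-fold (95% interval 1.27 to 1.74, adjusted p = 0.00178). Against a minimum fold of 1.5 the call of Cks2 was lost (adjusted p = 1), while the other 36 genes kept theirs (8.4% of all genes were called higher at that minimum).

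Mki67 (ENSMUSG00000031004), whose protein coats mitotic chromosomes and is the common marker of cycling cells, was the most abundant of the 37 by CPM in the CCl4 livers. It had 66, 65.7 and 32.4 CPM in the CCl4 livers, against 4.52, 5.67 and 3.66 CPM in the controls, and rose 11.8-fold (95% interval 5.84 to 24, adjusted p = 0.00197). Top2a (ENSMUSG00000020914), the topoisomerase that untangles sister chromatids, had 25.6, 30.4 and 14.7 CPM in the CCl4 livers, against 3.3, 3.94 and 3.6 CPM in the controls, and rose 6.5-fold (95% interval 3.89 to 10.9, adjusted p = 0.000876).

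Centromere and outer kinetochore genes differed widely among themselves. Cenpf (ENSMUSG00000026605), a large protein of the outer kinetochore, had 18.6, 18.5 and 10.9 CPM in the CCl4 livers, against 0.958, 1.57 and 1.11 CPM in the controls (13.2-fold, 95% interval 8.23 to 21, adjusted p = 7.47e-05). Cenpe (ENSMUSG00000045328), the kinesin that moves chromosomes to the spindle equator, had 15.9, 15.5 and 6.09 CPM in the CCl4 livers, against 0.958, 1.57 and 0.848 CPM in the controls, a rise of 11.1-fold (4.66 to 26.3). Cenpa (ENSMUSG00000029177), the histone H3 variant that marks centromeres, was already present in the controls, with 25, 26.6 and 15.1 CPM in the CCl4 livers, against 7.56, 8.32 and 7.95 CPM in the controls. Its rise was 2.8-fold (95% interval 1.97 to 3.97, adjusted p = 0.00156).

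The Ndc80 complex, which grips the microtubule, is built from Ndc80, Nuf2, Spc25 and Spc24. Ndc80 (ENSMUSG00000024056) had 3.07, 4.01 and 1.18 CPM in the CCl4 livers, against 0.373, 0.324 and 0.583 CPM in the controls, a rise of 6.36-fold (2.83 to 14.3). CCl4 replicate 3 was only about 2 times the highest control for this gene, which rests on few counts. Nuf2 (ENSMUSG00000026683) had 6.96, 7.81 and 3.59 CPM in the CCl4 livers, against 0.479, 0.865 and 0.106 CPM in the controls, and rose 12.6-fold (5.19 to 30.3). Spc25 (ENSMUSG00000005233) had 12.7, 14.2 and 8.35 CPM in the CCl4 livers, against 3.89, 4.32 and 4.51 CPM in the controls, and rose 2.77-fold (95% interval 2.03 to 3.78, adjusted p = 0.000495). Spc24, from the list of related genes, also had a substantial level in the controls, with 19.8, 24.5 and 21.5 CPM in the CCl4 livers, against 9.16, 10.6 and 9.38 CPM in the controls (log2 fold change 1.18, SE 0.10, adjusted p = 3.88e-05). Per kilobase of exon, the ratio of Spc25 to Nuf2 was 3.61 to 4.63 in the CCl4 livers and 9.95 to 84.5 in the controls, where Nuf2 rested on as few as 2 counts. The ratio of Ndc80 to Nuf2 overlapped between the groups, at 0.321 to 0.501 in the CCl4 livers and 0.366 to 5.37 in the controls.

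The checkpoint and anaphase genes had the highest median of the 7 role groups, 3.98 on the log2 scale. Cdc20 (ENSMUSG00000006398), the activator of the anaphase-promoting complex, had 32.4, 38.8 and 18.3 CPM in the CCl4 livers, against 0.905, 1.62 and 0.689 CPM in the controls, and rose 27.7-fold (95% interval 12.6 to 61.1, adjusted p = 0.00078). Ube2c (ENSMUSG00000001403), the ubiquitin-conjugating enzyme of that complex, had 14.5, 14.5 and 7.27 CPM in the CCl4 livers, against 0.692, 0.919 and 0.424 CPM in the controls (17.7-fold, 95% interval 9.29 to 33.6, adjusted p = 0.000241). Both were thus scarce in oil-treated livers. Ttk (ENSMUSG00000038379), the kinase that starts checkpoint signalling, had 5.29, 6.23 and 3.14 CPM in the CCl4 livers, against 0.426, 0.108 and 0.318 CPM in the controls. Bub1 (ENSMUSG00000027379), a kinetochore kinase, had 5.09, 6.23 and 3.19 CPM in the CCl4 livers, against 0.106, 0.432 and 0.424 CPM in the controls. Neither gene overlapped between the groups, and their folds were 16.8-fold (8.81 to 32) and 14.8-fold (7.75 to 28.3), with control libraries at as few as 2 counts.

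Smaller rises were seen for the checkpoint effectors Bub1b (ENSMUSG00000040084), at 5.75-fold (3.27 to 10.1), and Mad2l1 (ENSMUSG00000029910), at 6.16-fold (3.68 to 10.3). Mad2l1 had 20.9, 22.3 and 12.9 CPM in the CCl4 livers, against 4.05, 3.08 and 1.96 CPM in the controls. The ratio of Cdc20 to Mad2l1 per kilobase was 6.37 to 7.83 in the CCl4 livers and 1 to 2.36 in the controls, higher in each CCl4 library than in any control. The ratio of Bub1 to Bub1b was likewise higher with CCl4, at 0.457 to 0.591 against 0.0854 to 0.253 with oil. Ratios between 2 genes are given as descriptions and were not tested. Another 17 genes of the anaphase-promoting complex were its subunits, activator, inhibitor and second conjugating enzyme. Of the 17, 6 were called higher (35.3%, against 21.2% of all genes tested) and 0 lower, with a median log2 fold change of 0.11. The 6 were 4 subunits, the inhibitor Fbxo5 (0.60) and the conjugating enzyme Ube2s (0.23). Of these subunits, Cdc23 (0.26) shares 13.4% of its exon bases with Kif20a, and Anapc15 (0.37) 38.4% with Tomt, each on the other strand. The subunit gene Anapc5 had 85, 84.1 and 89.7 CPM in the CCl4 livers, against 67.7, 72.1 and 72.4 CPM in the controls (log2 fold change 0.29, SE 0.05, adjusted p = 0.00244). With DESeq2 the 6 became 2, with 1 library left out they were 2 to 5, and against a minimum fold of 1.5 there were 0. Fzr1, the other activator, had 11, 12.2 and 14.4 CPM in the CCl4 livers, against 11.9, 11.7 and 11.9 CPM in the controls (adjusted p = 0.564).

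The 4 genes of the chromosomal passenger complex, which corrects faulty attachments and guides cytokinesis, did not rise evenly. Its kinase Aurkb (ENSMUSG00000020897) had 6.65, 6.87 and 2.75 CPM in the CCl4 livers, against 0.639, 0.27 and 0.265 CPM in the controls (13.6-fold, 95% interval 6.07 to 30.7, adjusted p = 0.000849). Birc5 (ENSMUSG00000017716), survivin, had 14.6, 17 and 10 CPM in the CCl4 livers, against 1.06, 2.05 and 1.22 CPM in the controls (9.58-fold, 95% interval 6.02 to 15.3, adjusted p = 0.000128), and Cdca8 (ENSMUSG00000028873), borealin, rose 7.92-fold (5.07 to 12.4). Incenp (ENSMUSG00000024660), the scaffold of the complex, had 10.7, 11.5 and 6.19 CPM in the CCl4 livers, against 3.09, 3.19 and 2.07 CPM in the controls, a rise of 3.4-fold (95% interval 2.19 to 5.27, adjusted p = 0.00156). The ratio of Incenp to Aurkb per kilobase was 1.09 to 1.53 in the CCl4 livers and 3.29 to 8.03 in the controls, while those of Birc5 and Cdca8 to Aurkb overlapped between the groups. Between the 2 Aurora kinases, the ratio of Aurka to Aurkb was 2.5 to 3.87 in the CCl4 livers and 7.18 to 18.2 in the controls. Aurkb rested on 12, 5 and 5 counts in the controls, so control ratios to it are imprecise.

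Of the spindle motors and assembly factors, Hmmr (ENSMUSG00000020330), a hyaluronan-binding protein that also helps to build the spindle, had the largest fold of the 37. It had 21.3, 20.9 and 11.2 CPM in the CCl4 livers, against 0.426, 0.54 and 0.477 CPM in the controls, a rise of 36.5-fold (95% interval 20 to 66.8, adjusted p = 7e-05). Tpx2 (ENSMUSG00000027469), which activates Aurora A on spindle microtubules, had 19.4, 22.4 and 10.4 CPM in the CCl4 livers, against 1.12, 1.19 and 0.742 CPM in the controls (17-fold, 95% interval 8.96 to 32.4, adjusted p = 0.000357). The ratio of Hmmr to Tpx2 per kilobase was 0.804 to 0.946 in the CCl4 livers and 0.328 to 0.554 in the controls, where Hmmr rested on 8, 10 and 9 counts. Nusap1 (ENSMUSG00000027306), a microtubule bundler, rose 4.99-fold (3.56 to 7.01).

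Among the kinesins, Kif2c (ENSMUSG00000028678), which takes microtubules apart at kinetochores, had 10, 8.8 and 4.13 CPM in the CCl4 livers, against 0.479, 0.54 and 0.53 CPM in the controls (14.6-fold, 95% interval 7.51 to 28.6, adjusted p = 0.000297). Kif4 (ENSMUSG00000034311), a motor on chromosome arms, rose 12.3-fold (7.09 to 21.3). Kif11 (ENSMUSG00000012443), the motor that pushes the spindle poles apart, had 12.4, 12 and 6.34 CPM in the CCl4 livers, against 2.29, 2.38 and 2.07 CPM in the controls, a rise of 4.56-fold (95% interval 2.93 to 7.09, adjusted p = 0.000569). Kif15 (ENSMUSG00000036768), which can stand in for Kif11, was the scarcest of the 37 per kilobase in the CCl4 livers and rose 4.34-fold (2.32 to 8.13).

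All 6 genes of the central spindle and cytokinesis rose. Racgap1 (ENSMUSG00000023015) and Kif23 (ENSMUSG00000032254) form centralspindlin, the complex at the middle of the late spindle. Racgap1 had 19.4, 19.7 and 10.8 CPM in the CCl4 livers, against 1.38, 1.08 and 1.54 CPM in the controls, and rose 12.4-fold (95% interval 7.64 to 20.1, adjusted p = 0.000107). Kif23 had 5.9, 6.73 and 3.44 CPM in the CCl4 livers, against 1.49, 1.95 and 1.54 CPM in the controls, and rose 3.22-fold (95% interval 2.12 to 4.89, adjusted p = 0.000976), so that the ratio of Kif23 to Racgap1 per kilobase was 0.272 to 0.306 in the CCl4 livers and 0.896 to 1.61 in the controls. Ect2 (ENSMUSG00000027699), an exchange factor that centralspindlin recruits for cytokinesis, had 21.4, 26.5 and 13.1 CPM in the CCl4 livers, against 1.28, 2.54 and 1.38 CPM in the controls, a rise of 11.7-fold (6.13 to 22.4).

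Anln (ENSMUSG00000036777), anillin of the contractile ring, rose 7.89-fold (4.75 to 13.1), and Prc1 (ENSMUSG00000038943), which bundles the central spindle, 7.15-fold (3.82 to 13.4). Kif20a (ENSMUSG00000003779), the motor that carries the passenger complex to the middle of the spindle, had 17.1, 18.3 and 9.48 CPM in the CCl4 livers, against 0.479, 2.11 and 0.848 CPM in the controls, a rise of 13.1-fold (5.39 to 31.7). Control replicate 2 stood well above the other controls for this gene. Exon bases of 10 of the 37 genes are shared with another gene in the GENCODE M21 models, and 4 of them share 10% or more: 29.3% of the exon bases of Kif20a overlap Cdc23, 22.8% of Ube2c overlap Tnnc2, 15.1% of Kif4 overlap Pdzd11 and 11.1% of Prc1 overlap Rccd1, each on the other strand. No source used here states whether counting used strand, so the reads of such overlaps cannot be assigned to either gene with certainty. Of the overlapping genes, Cdc23 was called higher, by 0.26 on the log2 scale, and Pdzd11 and Rccd1 were not called. Tnnc2 had a mean of 0.0165 CPM in the CCl4 livers and 0.0177 CPM in the controls. These values cannot show how overlapping reads were counted, and the part of such reads in the folds was not tested.

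**Figure D2:**
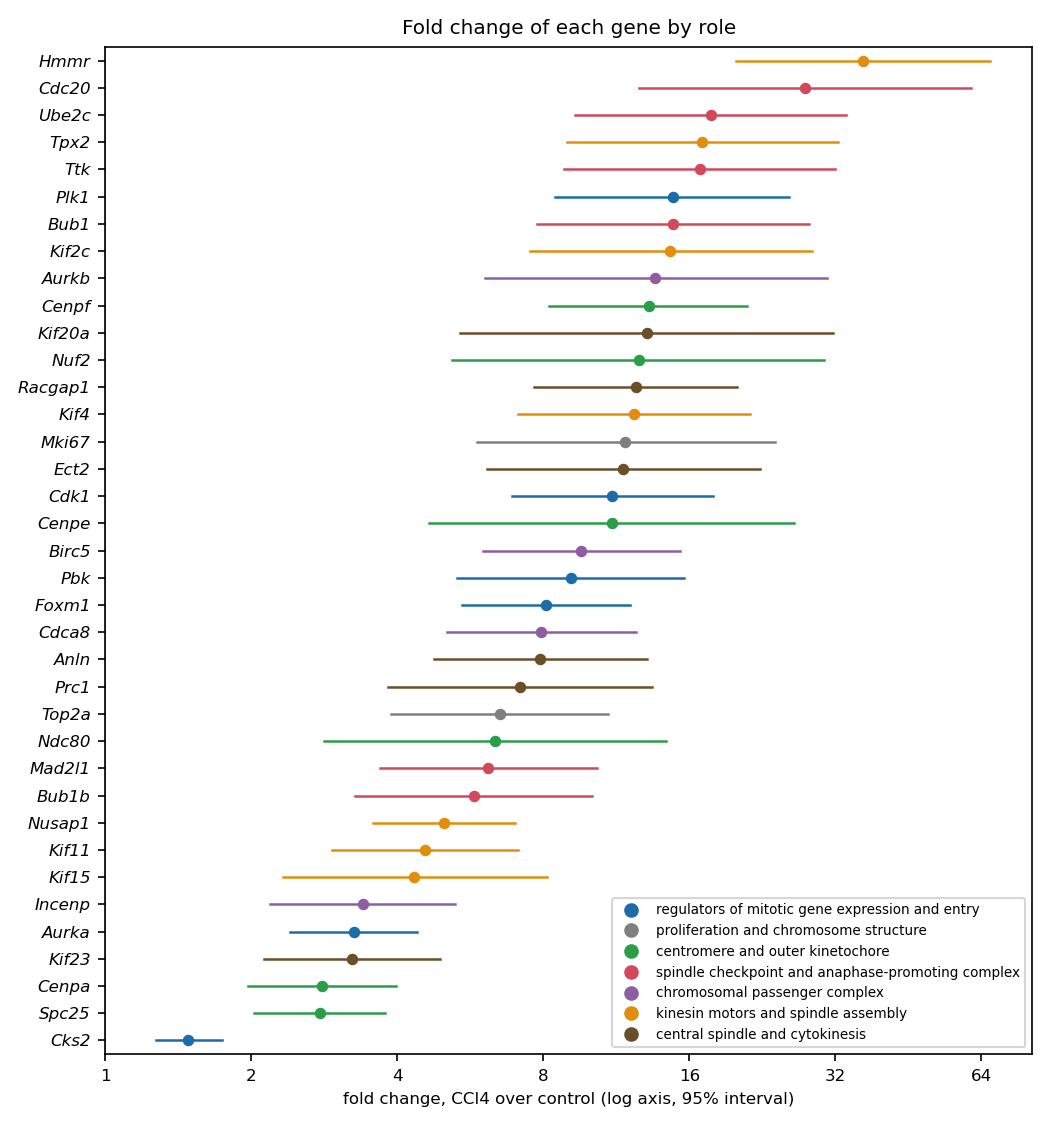
Fold change of each of the 37 genes, CCl4 over control, on a log axis, with 95% intervals from the fit over 3 libraries per group and colours for the 7 roles. Hmmr (36.5-fold) and Cdc20 (27.7-fold) lead, and Cks2 (1.48-fold), Spc25, Cenpa, Kif23, Aurka and Incenp stand at the low end, all under 4-fold.

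Genes with small folds were mostly those with high levels in oil-treated liver. Of the 6 genes under 4-fold, Cks2, Aurka, Cenpa, Spc25 and Incenp were, in that order, the 5 most abundant per kilobase in the controls. Kif23 ranked 21, and Cdc20, with the second largest fold, ranked 6. Across the 37 genes the log2 fold change and the mean control CPM had a Spearman correlation of -0.70, given as a description, since the control counts enter both. Cks2 averaged 31.9 ± 3.67 CPM per kb in the CCl4 livers and 21.5 ± 1.56 CPM per kb in the controls (SD, n = 3 each). Its difference of 10.4 CPM per kb was the second of the 37, after 15.4 for Cdc20, although its fold was the smallest. That rank depends on the annotated exon length, 692 bases for Cks2. Not divided by length, its difference was 7.19 CPM, against 28.7 CPM for Cdc20 and 50.1 CPM for Mki67. Aurka ranked 8 by the difference per kilobase, Cenpa 14 and Spc25 15, each above the median difference of 1.87 CPM per kb, while Incenp ranked 23 (1.54) and Kif23 ranked 35 (0.468), both below it. Cdc20 averaged 16 ± 5.6 CPM per kb in the CCl4 livers and 0.574 ± 0.261 CPM per kb in the controls. Kif15 averaged 0.283 ± 0.11 CPM per kb in the CCl4 livers and 0.0648 ± 0.0271 CPM per kb in the controls, and Mki67, the highest in CPM, 5.44 ± 1.92 CPM per kb in the CCl4 livers and 0.459 ± 0.1 CPM per kb in the controls.

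**Figure D3:**
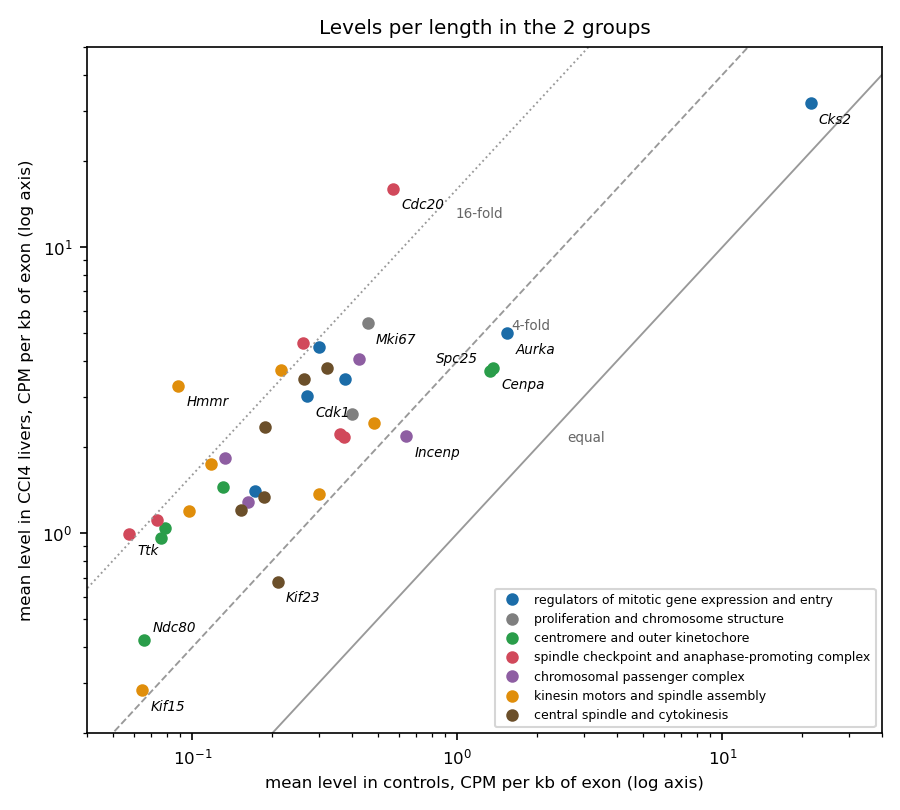
Mean level of each of the 37 genes in CCl4 livers (vertical) and in controls (horizontal), in CPM per kilobase of exon on log axes, coloured by role, with grey lines for equal levels and for 4-fold and 16-fold rises. Cks2 lies near the line of equality at 31.9 and 21.5 CPM per kb, Aurka, Cenpa and Spc25 lie to the right of the main cloud, and Cdc20 stands above it at 16 and 0.574.

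CCl4 replicate 3 held less of every one of the 37 transcripts than CCl4 replicates 1 and 2. Relative to the mean of these 2 libraries it stood at 0.333 (Ndc80) to 0.815 (Cks2), with a median of 0.534. Over all genes tested, 38.2% were lowest in this library, with a median ratio of 0.999, and over the 3303 genes called higher 36.8%, with a ratio of 1.02. Of the DNA replication genes 31 of 34 were lowest in it, at a median ratio of 0.78. Without CCl4 replicate 3 all 37 genes were still called higher, with a median log2 fold change of 3.45. The libraries also differed in order elsewhere. Control replicate 2 was the highest control for 30 of the 37 (81.1%, against 34.7% of all genes tested), and CCl4 replicate 2 exceeded CCl4 replicate 1 for 29 (78.4%, against 49.7%).

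Markers of several other cell types were higher in the CCl4 livers as well. The 10 macrophage and monocyte markers summed to 711 to 777 CPM in the CCl4 livers, against 223 to 301 CPM in the controls, and all 10 were called higher. The 10 stellate cell and myofibroblast markers summed to 1043 to 1105 CPM in the CCl4 livers, against 260 to 320 CPM in the controls, with 8 called higher. Acta2 and Tagln were the 2 not called, and Col3a1 was the largest part of the sum, at a mean of 391 CPM in the CCl4 livers. The 6 cholangiocyte markers summed to 253 to 336 CPM in the CCl4 livers, against 50.6 to 94.3 CPM in the controls, with 4 called higher. Most of the cholangiocyte sum was Spp1, which macrophages can also express, with 224, 260 and 303 CPM in the CCl4 livers, against 56.6, 76.3 and 41.8 CPM in the controls. The 8 endothelial markers (0 higher, 1 lower) summed to 276 to 300 CPM in the CCl4 livers, against 292 to 304 CPM in the controls. The 8 hepatocyte markers (1 higher, 3 lower) summed to 93301 to 99257 CPM in the CCl4 livers, against 92282 to 98949 CPM in the controls. Both sums overlapped between the groups. Most of the hepatocyte sum was Alb, at a mean of 73971 CPM in the CCl4 livers and 71800 CPM in the controls. The hepatocyte markers had a median log2 fold change of -0.21, with Serpina1c (-0.48), Tat (-0.27) and Cps1 (-0.24) lower and Ttr (0.24) higher. The T and natural killer cell markers summed to 7.91 to 12.3 CPM in the CCl4 livers, against 8.54 to 12.7 CPM in the controls, the B and plasma cell markers to 26.5 to 38.6 CPM in the CCl4 livers, against 25.3 to 27.7 CPM in the controls and the erythroid markers to 267 to 294 CPM in the CCl4 livers, against 169 to 248 CPM in the controls. Of the 6 erythroid markers tested, 3 were called higher (Hba-a1, Hbb-bs and Tfrc) and 1 lower. The lower one, Alas2, had 49.5, 59.3 and 46.4 CPM in the CCl4 livers, against 90.6, 104 and 95.4 CPM in the controls. Of the markers of neutrophil precursors, which also divide, Elane, Mpo, Ctsg and Camp were too scarce to test, and Mpo and Ctsg had libraries at 0. All 8 neutrophil precursor markers summed to 10.5 to 15.3 CPM in the CCl4 livers, against 2.7 to 4.15 CPM in the controls, and the 4 that were tested were higher. The most abundant of them was S100a8, at a mean of 5.42 CPM in the CCl4 livers and 1.6 CPM in the controls. Whether this rise lay in precursors or in mature neutrophils was not tested. The median ratio of CCl4 replicate 3 to the other CCl4 libraries was 1.07 for macrophage, 1.05 for stellate cell, 1.06 for endothelial, 1.13 for cholangiocyte and 0.899 for hepatocyte markers. It was 1.5 for the scarce T and natural killer cell markers, 0.947 for B and plasma cell, 0.983 for erythroid and 0.952 for neutrophil precursor markers. The part of each cell type in the mitotic transcripts was not tested.

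**Figure D4:**
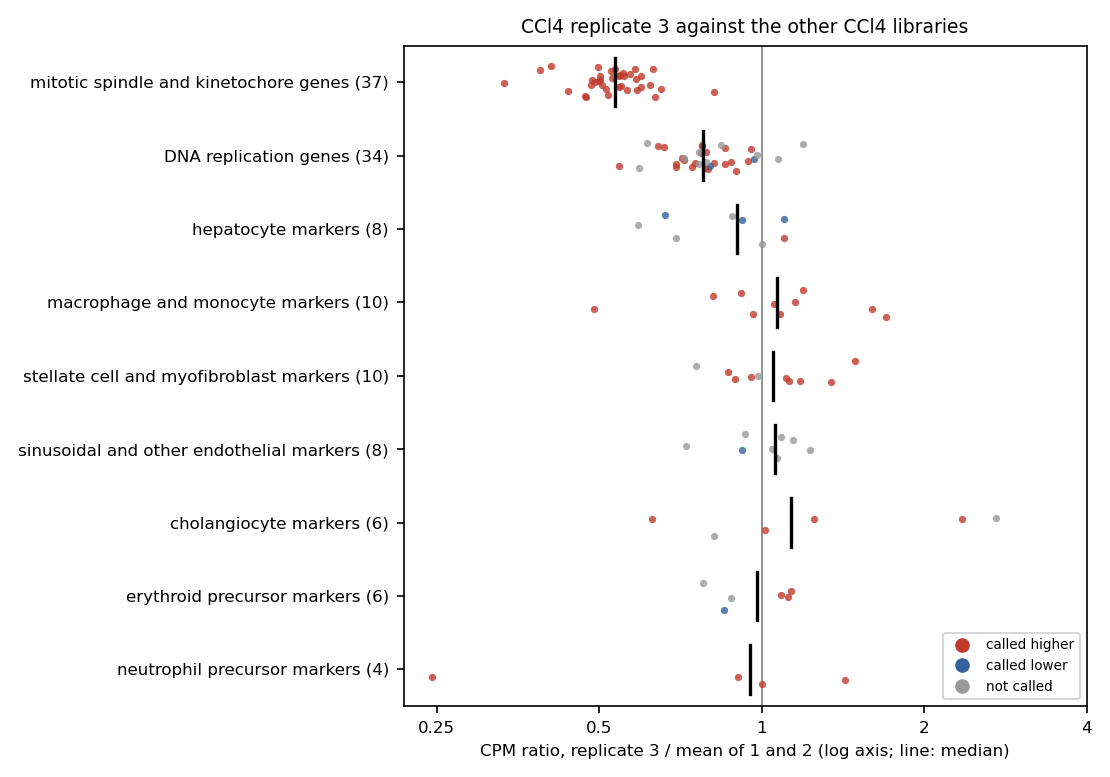
Ratio of the CPM in CCl4 replicate 3 to the mean of CCl4 replicates 1 and 2 for each tested gene of the lists shown, on a log axis with the median as a black line. Points are coloured by the call of CCl4 against control, and the number of genes is in brackets. The T and natural killer cell markers and the B and plasma cell markers are not drawn. The mitotic genes sit around 0.534 and DNA replication genes around 0.78, while the medians of the hepatocyte, macrophage, stellate cell, endothelial and cholangiocyte markers lie between 0.899 and 1.13.

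Other genes of the same machinery fell into those that moved with the 37 and those that did not. Counts in the lists below stand beside shares over all genes tested of 21.2% called higher and 20.1% called lower. Of 30 other mitotic kinesins and spindle genes tested, 20 were higher and 1 lower (median 2.63). Depdc1a, a mitotic transcriptional repressor, had 5.14, 5.64 and 2.8 CPM in the CCl4 livers, against 0.213, 0.216 and 0.106 CPM in the controls (log2 fold change 4.62, SE 0.41, adjusted p = 3.82e-05). The member called lower was Numa1 (log2 fold change -0.35, SE 0.05, adjusted p = 0.000764), which anchors spindle poles and is a nuclear protein of resting cells too. Of the augmin subunits tested, Haus1 to Haus6 were not called and Haus8 was higher (log2 fold change 0.92, SE 0.12, adjusted p = 0.00035).

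Of 20 mitotic entry kinases, cyclins and phosphatases, 17 were higher and 2 lower (median 1.15). Ccnb2, cyclin B2, had 24.5, 26 and 14.7 CPM in the CCl4 livers, against 1.06, 1.08 and 0.795 CPM in the controls (log2 fold change 4.46, SE 0.29, adjusted p = 3.95e-05). Nek7 (-0.16) and the phosphatase subunit Ppp2r2d (-0.38) were the 2 lower ones. Of 20 other outer kinetochore and checkpoint genes, 13 were higher and 0 lower (median 1.2), among them Bub3, with 33.8, 31.7 and 27.6 CPM in the CCl4 livers, against 24.7, 25.4 and 26 CPM in the controls (log2 fold change 0.29, SE 0.08, adjusted p = 0.0175). The microtubule regulators Ckap5, Clasp1 and Clasp2 of that list were not called.

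The constitutive centromere network, the inner layer on which kinetochores are built, had 14 of 18 genes higher and 1 lower (median 1.4). Cenpm had 4.84, 4.9 and 5.35 CPM in the CCl4 livers, against 1.33, 0.919 and 0.901 CPM in the controls (log2 fold change 2.25, SE 0.20, adjusted p = 3.71e-05). The lower member, Hjurp, the chaperone that loads Cenpa, had 123, 124 and 98.3 CPM in the CCl4 livers, against 160, 144 and 162 CPM in the controls (log2 fold change -0.43, SE 0.09, adjusted p = 0.00532), while the next most abundant gene of the list, Cenpx, averaged 16.4 CPM over all 6 libraries. Of 22 condensin, cohesin and separase genes, 11 were higher (50%) and 5 lower (median 0.78). The lower share was near the 20.1% of all genes tested. The condensin subunit gene Ncaph had 5.39, 5.89 and 3.73 CPM in the CCl4 livers, against 1.28, 1.24 and 1.22 CPM in the controls (log2 fold change 2.00, SE 0.22, adjusted p = 0.000124). Those lower were the cohesin subunits Smc1a (-0.18) and Stag2 (-0.48), the cohesin regulators Wapl (-0.30) and Pds5a (-0.27), and securin, Pttg1, with 17.3, 17.4 and 20.3 CPM in the CCl4 livers, against 25.4, 22.8 and 21.1 CPM in the controls (log2 fold change -0.33, SE 0.10, adjusted p = 0.0203).

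The DREAM, MuvB and E2F system switches the mitotic genes on and off. Of 21 of its genes, 7 were higher (33.3%, against 21.2% of all genes tested) and 5 lower (median 0.12). The lower share was near the 20.1% of all genes tested. Mybl1, a relative of B-Myb, had 5.54, 5.54 and 4.52 CPM in the CCl4 livers, against 1.01, 1.08 and 0.795 CPM in the controls (log2 fold change 2.43, SE 0.20, adjusted p = 2.4e-05), and Mybl2, which encodes B-Myb, rose by 1.29. The other 5 higher genes were the pocket protein Rbl1 (log2 fold change 1.59, SE 0.14, adjusted p = 3.33e-05), E2f1 (0.89), E2f2 (1.69), the E2F partner Tfdp1 (0.36) and the NF-Y subunit Nfya (0.38). The lower ones were Rbbp4 (log2 fold change -0.55, SE 0.06, adjusted p = 8.99e-05), a MuvB subunit, the other pocket proteins Rb1 (-0.41) and Rbl2 (-0.53), the second E2F partner Tfdp2 (-0.30) and the NF-Y subunit Nfyb (-0.23). The MuvB subunits Lin9, Lin37 and Lin52 were not called.

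DNA replication genes, the nearest neighbours in the cell cycle, had 22 of 34 higher and 2 lower, and a median of 0.59 beside 3.26 for the mitotic genes. Mcm6, of the replicative helicase, had 21.7, 25.1 and 22.1 CPM in the CCl4 livers, against 5.06, 7.24 and 5.67 CPM in the controls (log2 fold change 1.94, SE 0.13, adjusted p = 9.65e-06). The 2 lower genes were Pola2 (-0.31) and Mcm10, with 29.3, 36.7 and 26.6 CPM in the CCl4 livers, against 64.5, 54.2 and 76.7 CPM in the controls (log2 fold change -1.08, SE 0.17, adjusted p = 0.00267). Of 14 chromatin genes of dividing cells, 10 were higher and 1, Cbx5 (-0.18), lower (median 0.79). Tmpo, of the nuclear lamina, had 77.1, 79.9 and 75.4 CPM in the CCl4 livers, against 53.7, 53.4 and 49.5 CPM in the controls (log2 fold change 0.57, SE 0.06, adjusted p = 6.6e-05). Kinesins that carry cargo outside mitosis had 5 of 22 genes higher (22.7%, against 21.2% of all genes tested) and 4 lower, and a median of -0.01. Without control replicate 1 the 5 became 3. Kif1b had 145, 141 and 145 CPM in the CCl4 livers, against 229, 249 and 275 CPM in the controls (log2 fold change -0.81, SE 0.07, adjusted p = 4.08e-05), and Kif1c had 177, 169 and 172 CPM in the CCl4 livers, against 231, 238 and 252 CPM in the controls (log2 fold change -0.48, SE 0.06, adjusted p = 0.000198). Kif13b (-0.26) and Kif21a (-0.34) were also lower. The 5 higher ones were Kif3a (0.71), Kif3c (1.31), Kif5c (2.30), Kif7 (1.07) and Kif21b (0.98), of which Kif3c shares 35.3% and Kif7 19.1% of its exon bases with an antisense transcript. Kif5c was scarce and uneven, with 0.907, 0.841 and 2.8 CPM in the CCl4 livers, against 0.319, 0.432 and 0.159 CPM in the controls. Differences between lists were not tested.

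**Figure D5:**
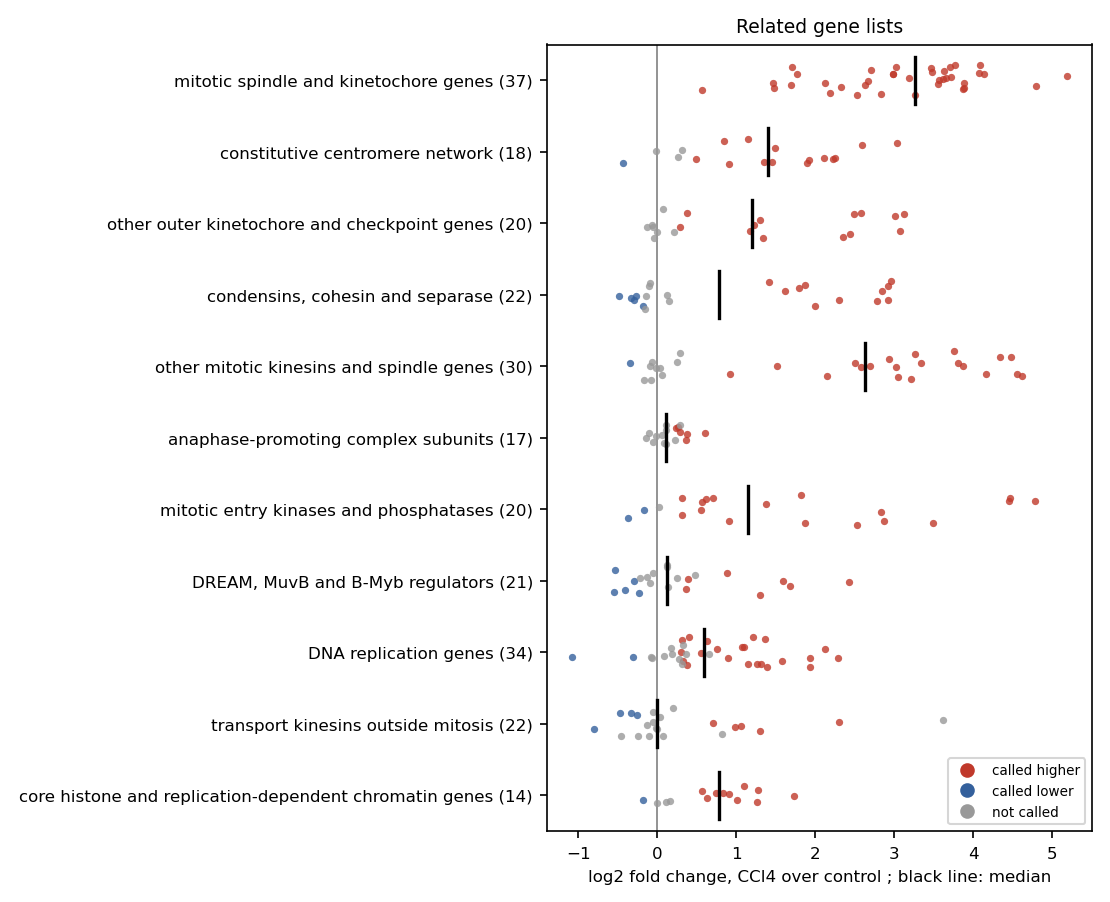
Log2 fold change, CCl4 over control, of each tested gene in the 37 and in 10 related lists (numbers of tested genes in brackets), red for called higher, blue for called lower and grey for not called, with the median of each list as a black line. The median is 3.26 for the mitotic spindle and kinetochore genes, 2.63 for other mitotic kinesins and spindle genes, 0.59 for DNA replication and -0.01 for transport kinesins.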

How the data were processed

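Messenger RNA of 6 mouse liver libraries was measured by RNA-seq (SMARTER library kit, per the labels' protocols). Per the series' design text, reads were trimmed, filtered and aligned with HISAT2, and per the submitters' processing notes they were counted with featureCounts. No source used here gives versions, genome build, annotation or strand setting. The authors deposited unnormalised gene counts in 55802 rows, of which 55359 carry Ensembl identifiers (52083 matched GENCODE M21, used for symbols and exon lengths) and 443 identifiers of another kind.

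The test was edgeR 4.0.16 in R 4.3.3 (filterByExpr, TMM scaling, robust glmQLFit and glmQLFTest, Benjamini-Hochberg adjustment over 15579 genes, threshold 0.05). The common biological coefficient of variation was 10.63%. Standard errors are the log2 fold change over the square root of F. CPM are relative to TMM-scaled library totals, and CPM per kilobase divide by the union of annotated exons. The fit was tested on simulated counts. Replicate pairs differed beyond sampling noise (chi-square per gene 5.19 to 23). Promoter windows are from RefSeq (GRCm38.p6). Alternatives were other scalings, filters, tools (DESeq2 1.42.0, limma 3.58.1 voom), a minimum fold of 1.5, a replicate block and each library left out. PCR duplicates cannot be recognised in the counts, so counting error is a lower limit.

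Members and lists were chosen with earlier results of these data known. All 37 members are named. From each related list the called gene of smallest adjusted p and that of highest mean CPM are named, and genes in counts of 5 or fewer, except 1 that is not reported here. Others were chosen after their values were seen.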

Additional observations from a re-analysis of the deposited data

How the results depend on the processing

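All 37 mitotic genes were called higher under every alternative except the minimum fold of 1.5, where 36 were and Cks2 was not (log2 fold change 0.57). Their median log2 fold change ran from 3.25 to 3.40 over the other alternatives and from 3.08 to 3.5 with a library left out. Over all genes, library size alone gave 4824 higher and 1676 lower calls (74.2% higher, against 51.4%) with a shift of 0.147 (log2) in the typical gene, and upper quartile scaling gave 4103 and 2177 (65.3%). The minimum fold left 1309 higher and 380 lower. It also left higher 0 genes of the anaphase-promoting complex list, 10 mitotic entry genes, 3 DREAM and MuvB genes, 12 DNA replication genes, 2 transport kinesins and 5 chromatin genes. The 6 higher genes of that list became 2 in DESeq2, 3 without a filter and 11 with library size alone. With a library left out they were 2 to 5, and higher transport kinesins 3 to 6. The stricter filter left 3 transport kinesins. In the 200 bases before the start, 33.3% of member windows held TTTGAA, 36.4% a CHR match, 30.3% both CHR and CCAAT and 21.2% CHR with 2 or more CCAAT. That window leaves out the bases after the start.

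The libraries share replicate numbers, but same-numbered libraries did not deviate together over all genes (correlations of 0.0483, 0.00396 and 0.0635), so the main test did not pair them. The labels do not say whether equal numbers mean paired libraries, and these correlations cannot exclude it. With the replicate block, 3298 genes were higher and 3118 lower, and all 37 mitotic genes were called. Depth limits the controls most, where 14 of the 37 genes averaged under 1 CPM.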

Other observations

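Transport kinesins that are typical of neurons were uneven among the CCl4 libraries. Kif1a had 0.907, 1.34 and 8.5 CPM in the CCl4 livers, against 0.106, 0.486 and 0.265 CPM in the controls (adjusted p = 0.086), and Kif5a had 1.21, 1.68 and 8.4 CPM in the CCl4 livers, against 2.18, 2.49 and 1.75 CPM in the controls (adjusted p = 0.489). Both were highest in CCl4 replicate 3, the library in which all 37 mitotic genes were the lowest of the CCl4 group. Over the 22 transport kinesins tested, the median ratio of this library to the mean of the other CCl4 libraries was 1.07. Both genes were picked out after their values were seen, and no cause was tested.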
